A study of Ovis aries with 30 samples.

Results

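Fatty acids are made in fat cells from citrate that leaves the mitochondria, and 6 genes of this route were followed here in epicardial adipose tissue (EAT), the fat on the surface of the heart. ATP citrate lyase (ACLY) splits citrate into acetyl-CoA, acetyl-CoA carboxylase alpha (ACACA) turns acetyl-CoA into malonyl-CoA, and fatty acid synthase (FASN) joins these units into palmitate. Malic enzyme 1 (ME1) supplies NADPH for the synthase, stearoyl-CoA desaturase (SCD) puts a double bond into the products, and diacylglycerol O-acyltransferase 1 (DGAT1) adds the last fatty acid of a triglyceride. In adult ruminants acetate is the main carbon source for fatty acid synthesis in fat, activated by acetyl-CoA synthetase ACSS2. ACLY is therefore held to carry less of the flow in them than in rodents. The animals here were not adults. The genes were chosen by name, as every probe of the sheep array annotated to them by gene name or by the symbol or full name in its description. This gave 8 of the 15008 probes on the array, with ACACA and DGAT1 represented by 2 probes each, and all 8 were bright enough to be among the 12872 probes tested.

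RNA from the EAT of 30 sheep was hybridised to an Agilent expression array in 1 colour. At term, 8 Control fetuses came from untreated ewes and 6 CORT fetuses from ewes given cortisol, 1 mg/kg daily. At the age of 2 weeks, 7 Control lambs came from untreated ewes and 9 CORT lambs from ewes given 0.5 mg/kg daily while pregnant. Infusion began on gestational day 115, and the offspring themselves were not treated. The dose differed between the ages. The study infused the ewes of the lambs overnight only, until delivery, and describes its model with 1 mg/kg daily as continuous. The cortisol effects in fetuses and lambs thus come from 2 different exposures. The study describes twins among the lambs, and the labels do not say which, so p-values treat all animals as independent.

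The array probes are the sequences that the values rest on, and those shown here are the probes of ACLY, FASN and ME1 and the first probe of DGAT1, given in the sense of the mRNA from 5′ to 3′. The 3 bases in capitals in the ACLY probe are a TAA triplet at its 3′ end, at the position of a stop codon.

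ACLY: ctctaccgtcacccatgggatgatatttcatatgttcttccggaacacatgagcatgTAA

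FASN: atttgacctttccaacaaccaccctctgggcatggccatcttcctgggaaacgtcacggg

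ME1: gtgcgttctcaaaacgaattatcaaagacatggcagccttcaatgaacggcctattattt

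DGAT1 probe 1: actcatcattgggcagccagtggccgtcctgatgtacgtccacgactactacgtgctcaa

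The DGAT1 probes lie 217 bases apart on their transcript and read different stretches of it. The ACACA probes share 58 bases and are near copies of each other, so they count as 1 measurement of the mRNA. In the sheep assembly ARS-UI_Ramb_v3.0, the gene table places ACACA at chr11:13136279-13424655, ACLY at chr11:41787714-41830084 and FASN at chr11:50277419-50296144. SCD lies at chr22:21026048-21038058, DGAT1 at chr9:13554986-13569123 and ME1 at chr8:10392286-10601405. Every member probe was well above background on all 30 arrays and none was saturated.

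Values are background-corrected, quantile-normalized intensities on the log2 scale. Levels are compared between animals for the same probe and not between genes. Median foreground intensity per array lay between 129.5 and 234.5 against a local background of 34 to 46, and between 70.4% and 83.5% of spots were well above background. Because whole tissue was measured, fewer cells of a type and less RNA per cell cannot be told apart.

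The clearest differences were between the ages. DGAT1 and ME1 were lower in Control lambs than in Control fetuses, and SCD was higher. By limma, 1 member probe was higher and 3 were lower at an adjusted p under 0.05 among 8. Across all tested probes, 20.3% were higher and 21.3% lower, so the share of member probes called is not far from that of the array as a whole. The median log2 change was -0.01 over all tested probes.

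**Figure D1:**
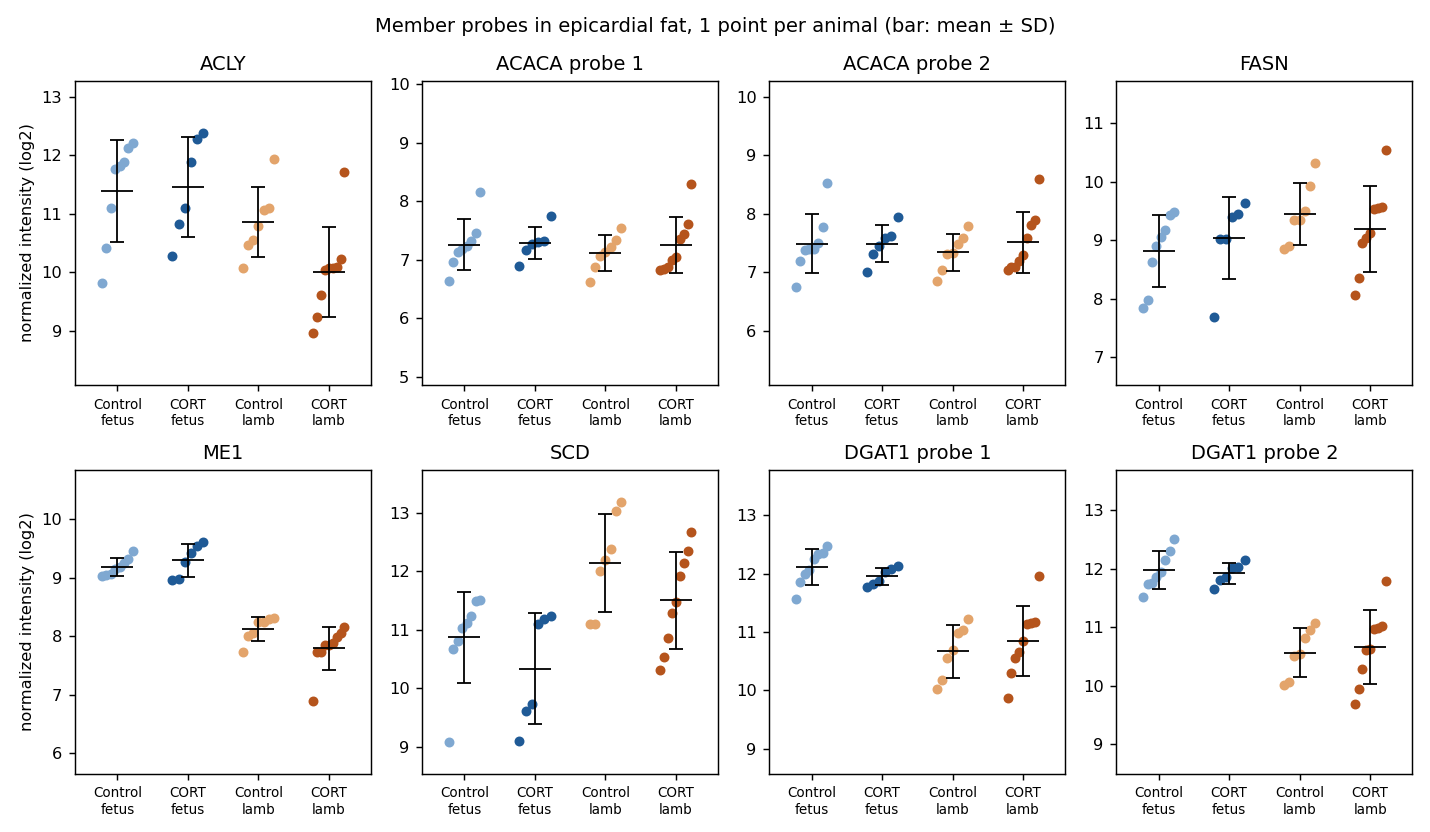
Normalized intensity on the log2 scale of each of the 8 member probes, 1 point per animal, with the mean and SD of each group as a bar. All panels span the same number of log2 units. Every Control lamb lies below every Control fetus for ME1 and for both DGAT1 probes, while the groups overlap for the other probes.

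DGAT1, the acyltransferase of the last step, had the largest decrease. In Control fetuses, DGAT1 probe 1 ranged from 11.56 to 12.47 with a median of 12.16, and in Control lambs from 10.02 to 11.23 with a median of 10.69. The groups did not overlap. The mean was 12.11 ± 0.30 (SD, n = 8) in Control fetuses and 10.67 ± 0.45 (SD, n = 7) in Control lambs, a log2 change of -1.44 (SE 0.18), or a fold of 0.368 (limma adjusted p = 9.80e-06). The second probe gave a log2 change of -1.41 (SE 0.18) and groups that did not overlap either. The CORT fetuses lay in the range of the Control fetuses on probe 1 (11.78 to 12.13, median 11.95), and CORT lambs in a wider range than Control lambs (9.88 to 11.96, median 10.85).

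ME1, the NADPH-producing malic enzyme, had the smallest SD of the 8 probes in both Control groups, 0.15 in fetuses and 0.21 in lambs. It ranged from 9.04 to 9.46 (median 9.17) in Control fetuses and from 7.73 to 8.31 (median 8.24) in Control lambs, again without overlap. Its log2 change with age was -1.06 (SE 0.09), a fold of 0.479 (limma adjusted p = 2.48e-07). The groups of 3 member probes thus did not overlap with lambs lower, against 8.49% of all tested probes, and none did with lambs higher, against 7.38%. For each of these 3 probes the exact two-sided permutation p over all 6435 splits of the 15 animals was 0.000155, the smallest that the design allows.

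SCD, the desaturase, went the other way. Its level lay between 9.09 and 11.51 (median 11.08) in Control fetuses and between 11.09 and 13.19 (median 12.20) in Control lambs. Of the 7 lambs, 5 lay above all fetuses. The log2 change was 1.27 (SE 0.38), a fold of 2.42 (limma adjusted p = 0.0123, exact permutation p = 0.00653).

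FASN, which makes palmitate, was 0.64 higher on the log2 scale in Control lambs (SE 0.27), with all 7 lambs above the mean of the fetuses and an adjusted p of 0.0703 by limma. Leaving out 1 of 4 animals in turn (Control fetus 7 or 8, Control lamb 1 or 6) brought that p below the threshold. Without Control lamb 2 the limma adjusted p was 0.153, the highest for any 1 animal left out. ACLY had a log2 difference of -0.54 (SE 0.35, limma adjusted p = 0.247), and the ACACA probes -0.15 each (limma adjusted p of 0.556 and 0.601), none of which passed the test. The members that passed with age thus included both directions. Fetuses lay on 2 slides and lambs on another 2, so a slide effect and an age effect cannot be told apart from the slide means alone. With the slide as a random block the same member probes passed, SCD at an adjusted p of 0.0382 by limma, and FASN stood at 0.133. This block cannot remove an effect shared by the 2 slides of an age, so it does not separate slide from age.

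**Figure D2:**
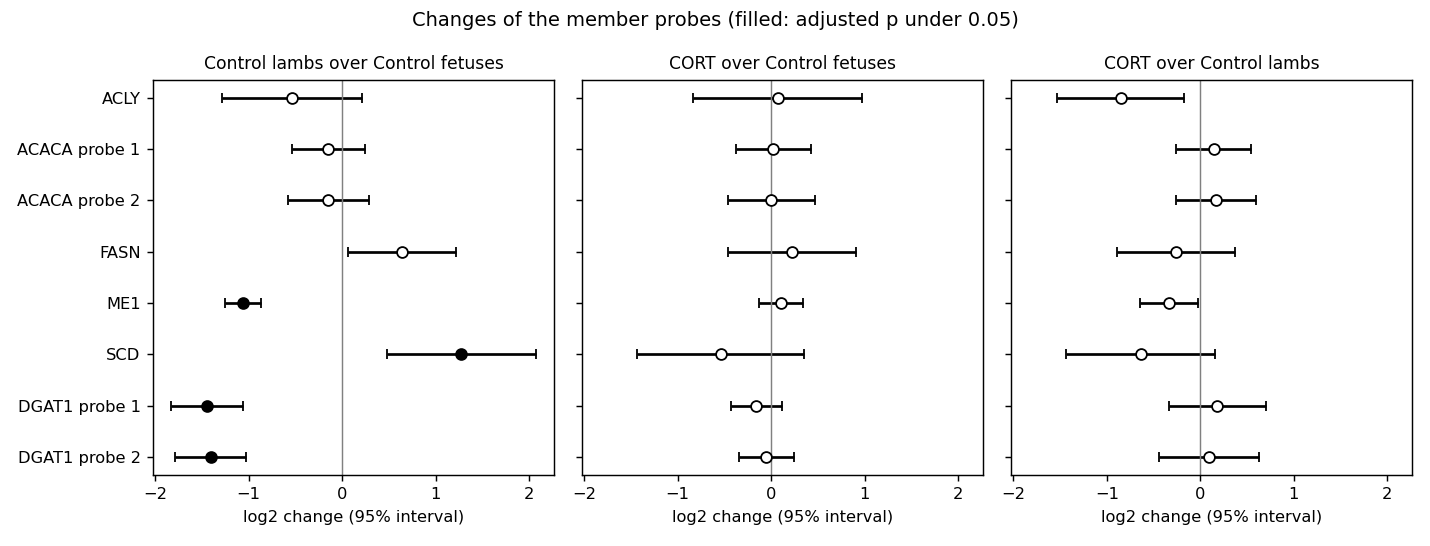
Log2 change of each member probe in the 3 comparisons of 2 groups, as limma estimated it, with its 95% interval. Filled points have an adjusted p under 0.05. These are DGAT1, ME1 and SCD between the ages, and no point is filled for cortisol in fetuses or lambs.

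Of the other genes in lists of the fatty acid, triglyceride, cholesterol and lipid storage pathways and their regulators, 18 had a tested probe with a name. With age, 4 rose and 1 fell at an adjusted p under 0.05, against 20.3% of all tested probes higher and 21.3% lower. The highest rise was that of lipoprotein lipase (LPL), which releases fatty acids from circulating triglyceride, with a log2 change of 1.81 (SE 0.19, limma adjusted p = 2.39e-06). The phospholipid phosphatase PLPP1 rose by 1.24 (SE 0.08, limma adjusted p = 1.82e-08), the desaturase SCD5 by 0.69 and the fat cell hormone leptin (LEP) by 0.55. ACSS2, the acetate-activating enzyme, fell by 0.60 on the log2 scale (SE 0.12, limma adjusted p = 0.000817). The median over the 18 genes was -0.08.

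Markers of several cell types moved with age as well, on an array where 20.3% of tested probes rose and 21.3% fell. The brown fat uncoupling protein UCP1 had a log2 change of -4.19 (SE 0.35, limma adjusted p = 1.68e-07), and 3 of 4 tested brown adipocyte markers fell. The summed linear intensity of those 4 lay between 16303 and 51220 in Control fetuses and between 1812 and 5349 in Control lambs. Of 5 tested general adipocyte markers 2 rose (summed 34747 to 55341 in Control fetuses, 33401 to 88033 in Control lambs), and both tested fibroblast and matrix markers rose (24581 to 42994, against 63857 to 90571). Of 5 tested myeloid markers 3 rose (summed 1219 to 1554, against 1773 to 2526, without overlap). The endothelial receptor FLT1 fell by 0.36 on the log2 scale (limma adjusted p = 0.00105), as 1 of 3 tested endothelial markers, and the apolipoprotein APOA1 rose by 1.57 (limma adjusted p = 7.74e-05), as 1 of 3 tested nerve and liver markers. None of the tested striated muscle, red blood cell and lymphocyte markers passed. The part of these shifts in the changes of DGAT1, ME1 and SCD was not tested.

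In lambs, the question was whether maternal cortisol before birth left a mark on these genes 2 weeks after birth. No member probe passed the adjusted threshold, nor did any probe on the array (0%). At an unadjusted p under 0.05, 2 of the 8 member probes were lower, ACLY and ME1, against 1.92% of all tested probes. ACLY had already been picked by the study from the same lambs, so its value here is not independent evidence.

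ACLY ranged from 10.07 to 11.94 (median 10.79) in Control lambs and from 8.96 to 11.71 (median 10.08) in CORT lambs. The groups overlapped, with 8 of 9 CORT lambs below the mean of the Control lambs and 4 below all of them. The exception was CORT lamb 4, at 11.71. The log2 difference was -0.85 (SE 0.32, 95% interval -1.53 to -0.17), a fold of 0.554, with an unadjusted limma p of 0.0167 and an exact permutation p of 0.0332. Over the 24 exact tests of member probes, the adjusted p was 0.133. The difference was -0.79 on the first slide of lambs and -0.73 on the second, and without CORT lamb 4 it was -1.06.

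ME1 ranged from 7.73 to 8.31 (median 8.24) in Control lambs and from 6.88 to 8.16 (median 7.85) in CORT lambs. Again 8 of 9 CORT lambs lay below the mean of the Control lambs. The log2 difference was -0.33 (SE 0.15, unadjusted limma p = 0.0355, exact permutation p = 0.0301), and -0.42 and -0.25 on the first and second slide. Without CORT lamb 1, the lowest for ME1, the log2 difference was -0.22. Its unadjusted p exceeded 0.05 when any of 6 animals was left out (Control lambs 1, 3, 5 and 6, CORT lambs 5 and 8), the highest being 0.0685.

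The other members did not pass at the unadjusted level. SCD had a log2 difference of -0.64 (95% interval -1.43 to 0.16) and FASN of -0.26 (-0.89 to 0.37). ACACA stood at 0.14 and 0.17 on its 2 probes, and DGAT1 at 0.18 (-0.34 to 0.70) and 0.09. The slides differed in sign for FASN (0.09 on the first, -0.53 on the second) and for DGAT1 probe 1 (-0.10 and 0.40), while SCD had -0.51 and -0.61. Without 1 animal, FASN ranged from -0.43 to -0.12, and with the replicate number as a block it was -0.08. Among the other 18 pathway genes none passed the adjusted threshold. The lower genes with the smallest p were PLPP1 (log2 difference -0.20, SE 0.09) and the lipid droplet protein PLIN2 (-0.69, SE 0.33), and the higher ones were the fat cell regulator PPARG (0.22, SE 0.16) and the droplet protein PLIN1 (0.13, SE 0.10). The adjusted p of all 4 was 1.00 by limma. Of 3 tested endothelial markers none passed the adjusted threshold. At an unadjusted p under 0.05, 2 were higher, against 1.64% of all tested probes. These were PECAM1 (limma unadjusted p = 0.0402) and FLT1 (limma unadjusted p = 0.0273). KDR was higher without passing (limma unadjusted p = 0.0527). The summed intensity of the 3 markers was 5680 to 10222 in CORT lambs against 3547 to 7008 in Control lambs. The study had already named FLT1 and KDR among these markers as higher, and PLIN2 as lower, in the same lambs. Their values here are thus not independent evidence. The part of the endothelial markers in the values of ACLY and ME1 was not tested.

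In fetuses, 0 of the 8 member probes passed at either level, against 0% of all probes at the adjusted and 2.37% at the unadjusted level. SCD had the largest log2 difference, -0.54 (95% interval -1.43 to 0.35, limma unadjusted p = 0.217). CORT fetuses ranged from 9.11 to 11.24 (median 10.42), within the range of the Control fetuses. The difference was -0.05 on the first slide of fetuses and -1.03 on the second. Without Control fetus 2, the lowest of its group for SCD and DGAT1, the log2 differences of SCD (-0.79) and DGAT1 probe 1 (-0.24) passed at the unadjusted level, and without CORT fetus 1 the difference of SCD was -0.29. ACLY had a log2 difference of 0.07 (-0.83 to 0.97), FASN of 0.23 (-0.46 to 0.91) and ME1 of 0.11 (-0.13 to 0.34). The ACACA probes stood at 0.02 and 0.00, from differences of opposite sign on the 2 slides (0.41 and -0.37 for probe 1).

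Whether the cortisol effect differed between lambs and fetuses was tested directly. No member passed the adjusted threshold, nor did any probe (0%). ME1 alone among the members passed at the unadjusted level, with a log2 difference of -0.44 between the effects, lambs less fetuses (SE 0.19, 95% interval -0.84 to -0.05), against 0.971% of all tested probes. For ACLY the difference between the effects was -0.92 (95% interval -2.03 to 0.20), and it passed at the unadjusted level without CORT lamb 4 (-1.13) or without CORT fetus 1 (-1.15). ME1 did not pass at that level without CORT fetus 1, without CORT fetus 4 or with cyclic loess normalization. Age, dose, the daily schedule of infusion and the time since it ended cannot be told apart in this comparison.

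The 6 enzymes were then compared animal by animal, as deviations from the group means, with each gene represented by its brighter probe. ACLY, ACACA, FASN and SCD were positively correlated in all pairs, with Pearson's r between 0.50 and 0.82 in lambs and between 0.46 and 0.92 in fetuses. The pairs of ME1 or DGAT1 with these 4 lay between -0.32 and 0.23 in lambs and between -0.33 and 0.37 in fetuses, and none of these passed. Of the 15 pairs at each age, 3 in lambs and 2 in fetuses passed after adjustment over all 30, and FASN was a partner in each of them. Each alternative setting added 1 lamb pair without FASN, ACLY and SCD (r between 0.62 and 0.68) or, with slide means removed, ACLY and ACACA (r = 0.75), and ACLY with ACACA also passed in fetuses with 75th percentile scaling (r = 0.68).

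**Figure D3:**
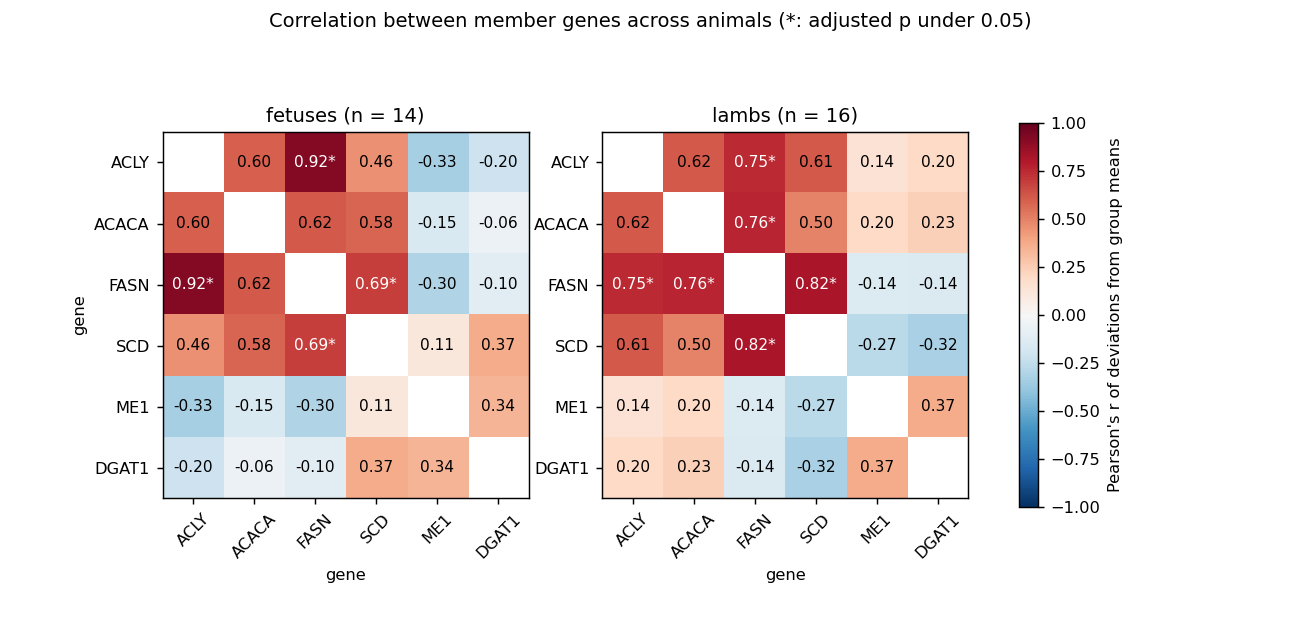
Pearson's r between the deviations of 2 member genes from their group means, for 14 fetuses on the left and 16 lambs on the right. An asterisk marks an adjusted permutation p under 0.05. ACLY, ACACA, FASN and SCD are positively correlated with one another at both ages, and the pairs of ME1 or DGAT1 with them lie between -0.33 and 0.37.

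In fetuses, ACLY and FASN had the highest correlation of all pairs (Pearson's r = 0.92, adjusted permutation p = 0.000300, Spearman's rho = 0.88, adjusted permutation p = 0.00330, n = 14). It was 0.90 on the first slide, 0.75 on the second, and 0.90 without the 2 fetuses farthest from the median of ACLY. FASN and SCD followed (r = 0.69, adjusted permutation p = 0.0280, rho = 0.63, adjusted permutation p = 0.0855). This relation rested on the 2 fetuses farthest from the median of FASN, without which r was 0.27.

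In lambs, FASN and SCD had the highest correlation (r = 0.82, adjusted permutation p = 0.00300, rho = 0.83, adjusted permutation p = 0.00450, n = 16), with 0.75 and 0.94 on the slides and 0.74 without the 2 farthest lambs. ACACA and FASN had r = 0.76 (adjusted permutation p = 0.0156, rho = 0.69, adjusted permutation p = 0.0555), and 0.55 without the 2 farthest lambs (permutation p = 0.0501). ACLY and FASN had r = 0.75 (adjusted permutation p = 0.0194, rho = 0.56, adjusted permutation p = 0.128). The last relation rested on 2 lambs, without which r was 0.42 (permutation p = 0.162).

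**Figure D4:**
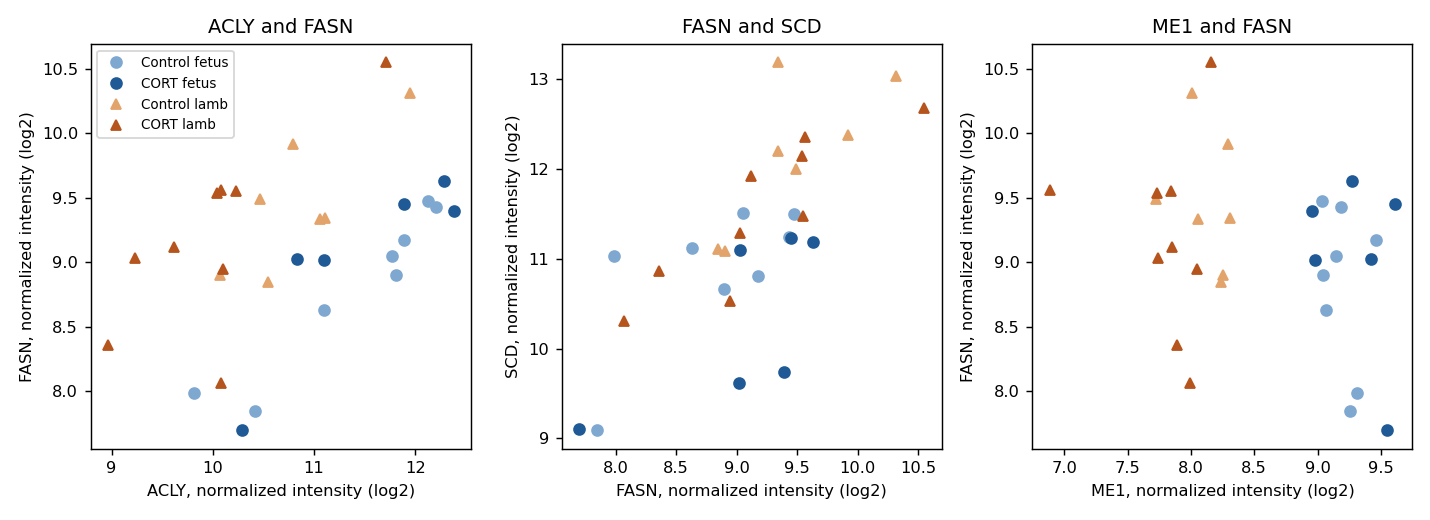
Normalized intensities on the log2 scale of ACLY against FASN, FASN against SCD and ME1 against FASN, 1 point per animal, with fetuses as circles and lambs as triangles. FASN rises with ACLY and SCD with FASN within each age, and the ages form separate clouds along the ME1 axis.

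Single animals carried several members together. CORT lamb 4 had the highest level among CORT lambs for ACLY, ACACA, FASN, SCD and ME1, at 2.20, 2.09, 1.86, 1.41 and 1.00 SD of the CORT lambs above their mean, while its DGAT1 lay at the mean. Control fetus 2 was the lowest Control fetus for ACACA, FASN, SCD and DGAT1 and had ACLY at -1.12 SD of that group. CORT lamb 1 had the lowest ME1, at -2.46 SD of the CORT lambs, together with FASN and SCD above the group mean.

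Correlations of the members with the marker lists were added after the values had been seen. The red blood cell markers HBB, a globin, and AHSP, its stabilizing protein, varied widely between animals. Their summed intensity ran from 2466 to 89457 in CORT fetuses and from 4364 to 55468 in Control fetuses. Among fetuses, the mean log2 level of these 2 genes was correlated with FASN (r = 0.89, adjusted permutation p = 0.00864, rho = 0.85, adjusted permutation p = 0.0241, over 108 relations of members with marker lists) and with ACLY (r = 0.86, adjusted permutation p = 0.00918, rho = 0.84, adjusted permutation p = 0.0241). Without the 2 farthest fetuses r was 0.85 and 0.83. On the first and second slide it was 0.90 and 0.69 for FASN and 0.84 and 0.65 for ACLY. ACLY was also correlated with the fibroblast and matrix markers in fetuses (r = 0.78, adjusted permutation p = 0.0407). In lambs the red cell markers had r of -0.08 with FASN and -0.07 with ACLY. The striated muscle markers varied widely as well, from a summed 8213 to 179246 in Control fetuses. None of their relations passed after adjustment. In fetuses they had r = -0.76 with DGAT1 (adjusted permutation p = 0.155) and -0.69 with SCD (adjusted permutation p = 0.156). The brown adipocyte markers had r = 0.66 with DGAT1 in lambs (adjusted permutation p = 0.155) and 0.65 in fetuses (adjusted permutation p = 0.239), which did not pass either. The part of red cell content in the relation of ACLY and FASN in fetuses was not tested.

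Across all 30 animals, the genes with a name whose deviations were most like those of a member were often other members. For ACLY they were FASN (r = 0.83), PRNT (0.62) and ACACA (0.60), and for FASN they were ACLY (0.83), SCD (0.76) and ACACA (0.69). For ACACA they included FASN (0.69) and ACLY (0.60). SCD was most like FASN (0.76), CBX5 (0.72) and RPA1 (0.65). ME1 was most like SLC25A6 (0.76), PABPC1 (0.66) and BAK (0.64), none of them a member. DGAT1 was most like STAT5A (0.71), which was so in lambs (0.83) more than in fetuses (0.17), a difference that was not tested. LOC443441 (0.70) and LOC100037672 (0.70) followed closely, with r of 0.73 and 0.81 in lambs and 0.60 for each in fetuses. These correlations share arrays and normalization and are given as a description. Over all other tested probes with a value on every array, the median r lay between -0.03 and 0.02 and the 95th percentile between 0.34 and 0.47 for the 6 genes.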

How the data were processed

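Scanner files of 30 arrays were used. Per the file headers they hold, for each spot, the mean foreground intensity, the median background intensity, an intensity that the software had corrected, and flags (other values) for saturation, outliers and signal well above background. The authors used Agilent Feature Extraction 10.1.1.1. The labels name Cy3 as the dye and the study's methods Cy5, and the files hold the green channel. The authors also deposited normalized log2 values, of which the 16 lamb columns served as an alternative. The other 14 per-sample columns were not used.

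With limma 3.58.1 in R 4.3.3, background was corrected by normexp (offset 50), outlier spots were removed (11 to 39 per array), the 30 arrays were quantile normalized on the log2 scale and repeated spots averaged. Probes at least 10% brighter than the 95th percentile of 77 negative control spots on at least 6 arrays were tested, 12872 in all. limma's lmFit and eBayes were used, two-sided, with the compared groups alone in each fit and Benjamini-Hochberg adjustment over all tested probes. Exact permutation tests, two-sided, used all splits of the compared animals. Correlations used 100000 permutations within groups, two-sided.

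On simulated data the fits recovered 98%, 93% and 95% of changes of 1 on the log2 scale in lambs, fetuses and between the ages, and 75%, 73% and 71% of changes of 0.5, among 12810 probes. The changed probes were drawn at random from these, each with its own spread between animals. The shares need not hold for single members such as ACLY and SCD, whose SE in lambs was 0.32 and 0.38. Named pathway genes were those past the adjusted threshold, at most 4 in each direction, or else the 2 with the smallest p in each direction. Similar genes were the 3 named genes with the highest r. One such gene and 1 probe sequence are not reported here. The members and gene lists were chosen with earlier results of these data known. The number of arrays limits the precision.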

Additional observations from a re-analysis of the deposited data

Results flagged for a closer look

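Single animals stood apart from their group by Dixon's ratio, the gap to the nearest animal over the range of the group, in 4 of the 32 combinations of a member probe and a group, and chance flags about 1 in 20. The ratio was 0.540 for ACLY in CORT lamb 4 (highest), 0.662 for ME1 in CORT lamb 1 (lowest), 0.681 for FASN in CORT fetus 1 (lowest) and 0.653 for SCD in Control fetus 2 (lowest).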

How the results depend on the processing

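Each comparison was repeated with other background corrections, scalings, filters, weights and blocks, and without each animal in turn. DGAT1, ME1 and SCD kept their direction and an adjusted p under 0.05 between the ages under all 26 alternatives, with SCD up to 0.0481, and no member passed the adjusted threshold for cortisol under any. The number of members higher with age was 1 to 2 without 1 animal, as FASN moved between 0.50 and 0.74. The number of members lower in CORT lambs at an unadjusted p was 1 with the replicate number as a block, which left ACLY and not ME1 (log2 difference -0.35). It was 3 with array weights and 1 to 3 without 1 animal. In fetuses it was 0 to 2 without 1 animal (2 without Control fetus 2), and in the difference between the ages 0 with cyclic loess and 0 to 2 without 1 animal. The replicate numbers were not taken to pair the animals, and in no comparison did every pair of same-numbered deviations correlate above 0.1. Same-numbered animals of an age mostly shared a slide, which these correlations can also reflect. They therefore cannot settle whether the numbers pair the animals. These correlations ran from -0.06 to 0.41 in lambs, where 5 of 7 exceeded 0.1, from -0.19 to 0.41 in fetuses (3 of 6) and from -0.23 to 0.24 between the ages (1 of 7).

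Signs turned only among changes that had not passed. With the block, DGAT1 probe 2 in lambs was -0.014, ACACA probe 2 with age 0.0015, and in the difference ACACA probe 1 was -0.035 and SCD 0.011. With the 75th percentile, which moved the median of all probes to 0.27 in fetuses, 0.14 with age and -0.26 in the difference, ACLY in fetuses was -0.12, ACACA probe 1 with age 0.015, and in the difference ACACA was -0.44 and -0.34 and SCD 0.0015. That scaling called 4780 probes higher and 2236 lower with age, against 2609 and 2743. With array weights ACACA in fetuses was -0.045 and -0.093 and ACLY -0.14, with the scanner software's corrected intensity ACACA probe 2 was -0.010, and with cyclic loess ME1 was -0.026. Without 1 animal, fetuses gave -0.068 to 0.15 and -0.10 to 0.15 for ACACA, -0.16 to 0.30 for ACLY and -0.12 to 0.024 for DGAT1 probe 2, lambs gave -0.046 to 0.22 for DGAT1 probe 2, ACACA probe 2 with age gave -0.25 to 0.0015, and the difference gave -0.013 to 0.21 for ACACA probe 1 and -0.34 to 0.16 for SCD. The cause was not tested. Correlated pairs past the threshold in fetuses numbered 4 with 75th percentile scaling, 3 with cyclic loess and 1 with group means kept, against 2, and in lambs 4 under each alternative, against 3. The number of arrays limits what could be detected.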
